A study of Mus musculus with 4 samples.

Results

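Schwann cells are the glia of peripheral nerve, and 8 genes of these cells and of the myelin they make are described here in imiquimod-treated mouse back skin: Sox10, Egr2, Mbp, Pmp22, Prx, Cnp, Mag and Ncam1. They were chosen by gene symbol with earlier results of these data known, and all 8 were found among the 20611 genes of the count tables. All 8 also passed the filter on low counts, as members of the 15068 genes tested. The 4 RNA libraries came from the back skin of BALB/c males, 8 to 9 weeks old. Skin of every group received a daily 47 mg of 5% imiquimod (IMQ) cream on days 1 to 5 and was taken on day 6. Imiquimod activates Toll-like receptor 7 and inflames mouse skin in a way that resembles psoriasis. The IMQ+IDMF group (1 library) was given, about 1 h after the cream, a lotion with IDMF, that is isosorbide di-(methyl fumarate), made as a pro-drug form of dimethyl fumarate. The IMQ+VEH group (2 libraries, replicates 1 and 2) was given the lotion without that compound. The IMQ group (1 library) had the cream and no lotion. Skin without imiquimod was not analysed here, so every level below is a level under imiquimod.

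Sensory nerve fibres run through the dermis and end in the epidermis, and in the nerve bundles Schwann cells wrap them. Around large fibres these cells build myelin, a stack of membrane held together by a small set of abundant proteins, and around thin fibres they form bundles without myelin. The transcription factor SOX10 is needed for Schwann cells to form at all, and together with it EGR2 (also called KROX20) switches on the genes of myelin proteins and lipids. Few of these genes belong to Schwann cells alone. Sox10 is also active in melanocytes and sweat glands, Egr2 in activated lymphocytes and macrophages, Pmp22 in fibroblasts and epithelia, and Ncam1 in muscle and neurons.

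Total counts were 21991604 in IMQ+IDMF, 26639628 and 21167149 in IMQ+VEH replicates 1 and 2, and 26337985 in IMQ. A count of 3, taken as the floor of detection, equalled 0.107 to 0.146 CPM (counts scaled to library sizes adjusted by TMM). Every member lay above it in every library. According to the labels these are independent biological replicates, but only IMQ+VEH has 2 of them, and the tests assume that the single IMQ+IDMF and IMQ libraries vary like that pair. Over all tested genes the IMQ library stood farthest from the others, at a root mean square of 0.679 to 0.755 in log2 CPM, against 0.639 within the IMQ+VEH pair. IMQ+IDMF stood at 0.589 and 0.564 from IMQ+VEH replicates 1 and 2, nearer than the replicates stood to each other. In bulk skin, fewer cells of a type and less RNA per cell cannot be told apart.

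All 8 genes were lowest in the IMQ library. IMQ lay below all 3 lotion libraries for 28.9% of all tested genes. The spread over the 4 libraries was widest for Pmp22, at 2.55 on the log2 CPM scale, and narrowest for Egr2 and Ncam1, at 0.33 and 0.35. IMQ+VEH replicate 1 was highest for 5 genes (Mbp, Pmp22, Prx, Sox10 and Cnp), IMQ+IDMF for Mag and Ncam1, and IMQ+VEH replicate 2 for Egr2. Averaged over the 8 genes, each centred on its own mean, the log2 CPM profile was 0.10 in IMQ+IDMF, 0.52 and 0.05 in IMQ+VEH replicates 1 and 2, and -0.67 in IMQ. The panels of CPM by library show these levels with their counting error.

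**Figure D1:**
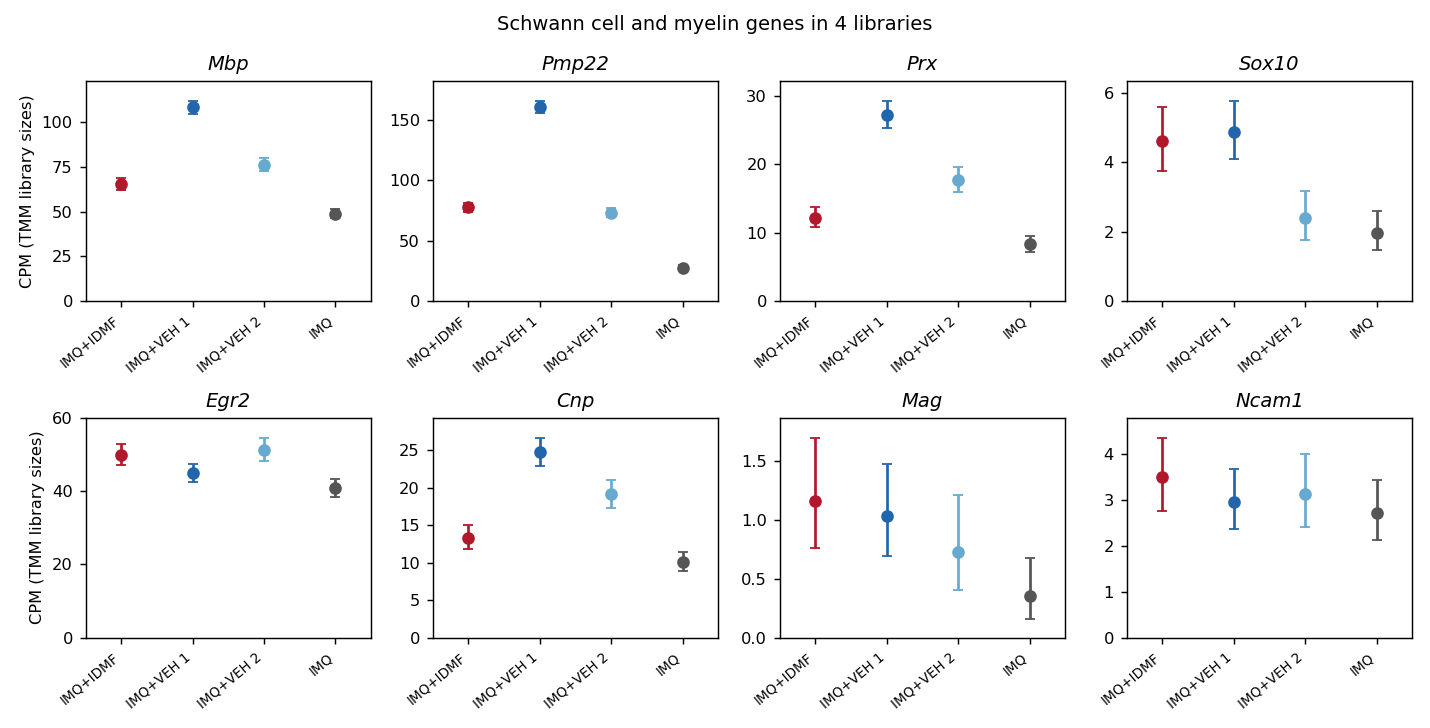
CPM of each of the 8 Schwann cell and myelin genes in the IMQ+IDMF, IMQ+VEH 1, IMQ+VEH 2 and IMQ libraries, 1 panel a gene, each with its own y axis from 0. Points are single libraries and bars are 95% Poisson intervals of the count, which cover counting error only; the IMQ point is the lowest in all 8 panels.

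Sox10 encodes the transcription factor that specifies Schwann cells and keeps them as such (gene ENSMUSG00000033006.10, GRCm38 chr15:79154908-79165240, minus strand). Its level was 4.61 CPM in IMQ+IDMF, 4.88 and 2.39 CPM in IMQ+VEH replicates 1 and 2, and 1.97 CPM in IMQ, from 103, 137, 49 and 50 counts in that order. IMQ+IDMF fell between the IMQ+VEH replicates, next to replicate 1, and replicate 2 lay close to IMQ. The log2 fold change (edgeR) was 0.89 with a standard error (SE) of 0.65 for IMQ+VEH against IMQ (adjusted p = 0.855), and 0.33 with an SE of 0.61 for IMQ+IDMF against IMQ+VEH (adjusted p = 1).

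Egr2, the partner of Sox10 in turning on myelin genes (chr10:67535475-67542188, plus strand), had 49.95 CPM in IMQ+IDMF, 44.95 and 51.4 CPM in IMQ+VEH replicates 1 and 2, and 40.7 CPM in IMQ. IMQ+IDMF lay between the IMQ+VEH replicates, and the 4 levels were close to each other. The log2 fold changes were 0.24 with an SE of 0.27 for IMQ+VEH against IMQ (adjusted p = 0.96) and 0.05 with an SE of 0.27 for IMQ+IDMF against IMQ+VEH (adjusted p = 1). Its counts were 1034 to 1261 a library.

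Pmp22 encodes peripheral myelin protein 22, a membrane protein of compact myelin whose gene dose matters in human inherited neuropathy (ENSMUSG00000018217.12, chr11:63128982-63159547, plus strand). It is transcribed from alternative starts that are used to different extents in Schwann cells and in other cells, and the counts do not separate them. The 250 bases before the first and the second of the 4 starts in RefSeq (GRCm38.p6) are shown because Pmp22 was the only member past the test; they lie at chr11:63128732-63128981 and chr11:63131207-63131456 on the plus strand, and neither holds the letters of the SOX core ACAAAG or the EGR core GTGGGNG on either strand.
Pmp22 start 1: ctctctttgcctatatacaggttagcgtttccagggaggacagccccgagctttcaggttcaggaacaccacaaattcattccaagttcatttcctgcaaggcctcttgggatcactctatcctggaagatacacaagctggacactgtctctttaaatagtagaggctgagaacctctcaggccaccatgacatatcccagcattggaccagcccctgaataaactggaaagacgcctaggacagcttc
Pmp22 start 2: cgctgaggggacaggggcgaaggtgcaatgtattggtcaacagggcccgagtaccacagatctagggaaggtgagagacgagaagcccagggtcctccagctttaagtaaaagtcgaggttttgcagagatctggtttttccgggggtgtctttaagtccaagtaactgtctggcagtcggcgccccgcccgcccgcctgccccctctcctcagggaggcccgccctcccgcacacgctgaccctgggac

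Pmp22 had 77.8 CPM in IMQ+IDMF, 161 and 73.3 CPM in IMQ+VEH replicates 1 and 2, and 27.4 CPM in IMQ. Its counts in the same order were 1740, 4511, 1502 and 696. All 3 lotion libraries lay above IMQ, and IMQ+IDMF lay between the IMQ+VEH replicates, close to replicate 2. Pmp22 rose in IMQ+VEH, which averaged 117 ± 61.9 CPM (SD, n = 2), against 27.4 CPM in IMQ. That was 4.27-fold, a log2 fold change of 2.09 with an SE of 0.42 (edgeR, adjusted p = 0.0497). It ranked last by p among the 100 genes called in that comparison. The adjusted p was 0.0972 with total counts as library sizes, 0.17 with a robust fit, 0.0544 without the IMQ+IDMF library and 0.197 with the 3 lotion libraries as 1 group, over a range of 3.84e-08 to 0.197 across alternatives. The log2 fold change was 1.42 without IMQ+VEH replicate 1 and 2.55 without replicate 2, then with 1 library a group and no test.

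Mbp encodes myelin basic protein, which glues the inner faces of the myelin membrane together. Its level was 65.4 CPM in IMQ+IDMF, 108 and 76.3 CPM in IMQ+VEH replicates 1 and 2, and 48.9 CPM in IMQ. IMQ+IDMF lay below both IMQ+VEH libraries and above IMQ. The log2 fold change was 0.92 with an SE of 0.30 for IMQ+VEH against IMQ (unadjusted p = 0.0097, adjusted p = 0.31) and -0.50 with an SE of 0.29 for IMQ+IDMF against IMQ+VEH (adjusted p = 1). The authors' FPKM values of Mbp differed more between libraries than the counts did. They were 18.8 in IMQ+IDMF, 37.7 and 22.2 in IMQ+VEH replicates 1 and 2, and 9.74 in IMQ, so that the mean of IMQ+VEH over IMQ was 3.07 by FPKM and 1.89 by CPM. The transcript length implied by count, total and FPKM was 3527 bases in IMQ+IDMF, 3031 and 3328 bases in IMQ+VEH, and 4841 bases in IMQ for Mbp. For Pmp22 that length was 2189 to 2234 bases in the 4 libraries.

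Prx encodes periaxin, a scaffold protein that stabilises mature myelin and links the Schwann cell to the matrix around it (ENSMUSG00000053198.13, chr7:27499324-27520214, plus strand). Exons of the antisense gene Gm15541 overlap it, and since the strand setting of the counting is not given, reads of the pair cannot be told apart. The 250 bases before its RefSeq start (GRCm38.p6, chr7:27499074-27499323, plus strand) are shown because they hold a match to the EGR core, 107 bases before the start on the minus strand, in capitals as it reads on the printed strand.
Prx start 1: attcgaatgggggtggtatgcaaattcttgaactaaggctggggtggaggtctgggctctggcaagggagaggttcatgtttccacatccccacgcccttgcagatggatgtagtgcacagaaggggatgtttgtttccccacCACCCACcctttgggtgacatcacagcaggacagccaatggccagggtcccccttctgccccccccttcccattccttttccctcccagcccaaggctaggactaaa

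Prx had 12.2 CPM in IMQ+IDMF, 27.3 and 17.7 CPM in IMQ+VEH replicates 1 and 2, and 8.31 CPM in IMQ. Both IMQ+VEH libraries lay above both of the other libraries, and IMQ+IDMF lay between IMQ and IMQ+VEH replicate 2. For IMQ+VEH against IMQ the log2 fold change was 1.44 with an SE of 0.39 (adjusted p = 0.177). IMQ+IDMF against IMQ+VEH gave -0.88 with an SE of 0.38, the largest difference of any member in that comparison (unadjusted p = 0.0389, adjusted p = 1).

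Cnp encodes the myelin enzyme CNPase, which keeps channels of cytoplasm open within myelin (ENSMUSG00000006782.16, chr11:100574904-100591729, plus strand). Exons of Dnajc7 on the minus strand overlap it, with the same limit on strand. The bases before its RefSeq start (GRCm38.p6, chr11:100574689-100574938, plus strand) are shown because they hold a match to the SOX core, 167 bases before the start on the plus strand, in capitals.
Cnp start 1: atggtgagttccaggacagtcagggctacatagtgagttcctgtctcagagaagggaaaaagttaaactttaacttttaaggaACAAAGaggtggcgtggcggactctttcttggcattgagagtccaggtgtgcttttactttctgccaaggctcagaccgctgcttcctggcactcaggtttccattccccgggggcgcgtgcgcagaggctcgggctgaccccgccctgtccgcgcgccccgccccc

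Cnp had 13.4 CPM in IMQ+IDMF, 24.7 and 19.1 CPM in IMQ+VEH replicates 1 and 2, and 10.1 CPM in IMQ. As for Mbp and Prx, both IMQ+VEH libraries lay above the other 2. The log2 fold change was 1.12 with an SE of 0.36 for IMQ+VEH against IMQ (unadjusted p = 0.00918, adjusted p = 0.30). It was -0.71 with an SE of 0.35 for IMQ+IDMF against IMQ+VEH (adjusted p = 1).

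RefSeq promoters were read for 14 starts of 5 members (Pmp22, Prx, Egr2, Cnp and Mag). Those of Mbp are not reported here and are left out of the member counts below. No start was at hand for Sox10 and Ncam1. The SOX core was found before 3 of the 14 starts, in Cnp and Mag, and before 16.5% of all 32851 starts in the table. The EGR core was found before 3 of the 14, in Prx, Egr2 and Mag, and before 28.1% of all starts. Windows of neighbouring starts overlap, and the SOX match of Mag is 1 site in the windows of 2 starts. No SOX match overlapped an EGR match, and a match describes letters only.

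Mag encodes myelin-associated glycoprotein, an adhesion protein on the membrane that faces the axon (ENSMUSG00000036634.15, chr7:30899176-30914873, minus strand). It was the least counted member, with 26 counts in IMQ+IDMF, 29 and 15 in IMQ+VEH replicates 1 and 2, and 9 in IMQ. As CPM this was 1.16 in IMQ+IDMF (95% exact Poisson interval 0.76 to 1.7, for counting error only), 1.03 (0.692 to 1.48) and 0.732 (0.409 to 1.21) in IMQ+VEH replicates 1 and 2, and 0.355 (0.162 to 0.673) in IMQ. The interval of IMQ overlapped that of IMQ+VEH replicate 2 but not those of IMQ+VEH replicate 1 and IMQ+IDMF. The log2 fold change was 1.31 with an SE of 1.05 for IMQ+VEH against IMQ (adjusted p = 0.887). For IMQ+IDMF against IMQ+VEH it was 0.39 with an SE of 0.93 (adjusted p = 1).

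Ncam1 encodes a neural cell adhesion molecule that, in adult nerve, is carried mainly by Schwann cells without myelin (ENSMUSG00000039542.16, chr9:49502136-49798925, minus strand; exons of the antisense gene Gm11149 overlap it). It had 3.49 CPM in IMQ+IDMF, 2.96 and 3.12 CPM in IMQ+VEH replicates 1 and 2, and 2.72 CPM in IMQ. IMQ+IDMF was highest and IMQ lowest, with counts of 64 to 83 in all 4 libraries. The log2 fold changes were 0.16 with an SE of 0.60 for IMQ+VEH against IMQ (adjusted p = 0.996) and 0.20 with an SE of 0.59 for IMQ+IDMF against IMQ+VEH (adjusted p = 1).

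IMQ+VEH against IMQ asks what the lotion without the compound does on imiquimod-treated skin. The 8 genes were higher in the IMQ+VEH libraries than in the IMQ library. For Egr2 (0.24, SE 0.27) and Ncam1 (0.16, SE 0.60) the log2 fold change was smaller than its SE. Both IMQ+VEH libraries lay above IMQ for 8 of 8 members, where 33.6% of all tested genes did so, and both lay below IMQ for 0 of 8, where 35% of tested genes did. The median log2 fold change of the 8 genes was 1.02, against 0.00 over all tested genes. By log2 CPM it was 1.28 for IMQ+VEH replicate 1 and 0.77 for replicate 2 against IMQ. The members' values ran from 0.16 for Ncam1 to 2.09 for Pmp22. By edgeR, 1 member (Pmp22) was called higher and 0 were called lower, where 0.338% of tested genes were called higher and 0.325% lower. The direction rests on a single IMQ library, so a difference of the lotion cannot be told apart from a difference of that library. The 8 genes were chosen with earlier results of these data known, so the shares beside their counts describe and do not test.

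IMQ+IDMF against IMQ+VEH asks what the compound adds to the lotion. Mbp, Prx and Cnp, 3 of the 8, were below both IMQ+VEH libraries in IMQ+IDMF, where 27.5% of tested genes were. Mag and Ncam1, 2 of the 8, were above both, where 27.7% of tested genes were. Pmp22, Sox10 and Egr2 lay between the IMQ+VEH replicates, so the myelin genes among the members did not share a direction. The median log2 fold change of the members was -0.22, against -0.01 over all tested genes. By log2 CPM the members' median was -0.41 against IMQ+VEH replicate 1 and 0.02 against replicate 2, so its sign rests on replicate 1. None of the members was called (0 higher and 0 lower), and by edgeR 0% of tested genes were called higher and 0% lower. Without an adjustment 306 of the 15068 genes had a p under 0.05, the smallest adjusted p was 0.267, and DESeq2 called 0 genes as well. The Pmp22 value of -0.59 in this comparison was 0.08 without IMQ+VEH replicate 1 and -1.05 without replicate 2. Both comparisons share the IMQ+VEH libraries and are not independent of each other.

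**Figure D2:**
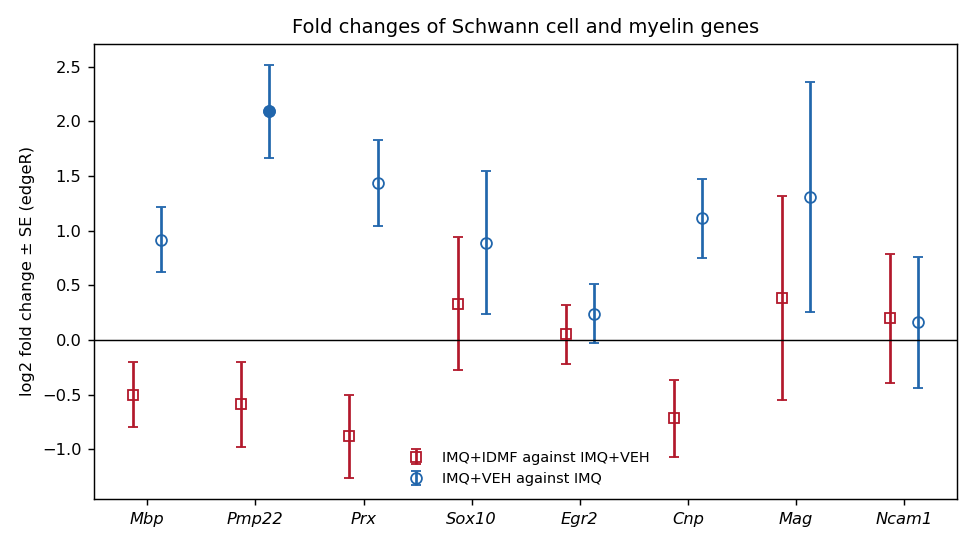
Log2 fold change (y axis, edgeR) of each of the 8 genes for IMQ+IDMF against IMQ+VEH (red squares) and IMQ+VEH against IMQ (blue circles), with bars of 1 SE. The filled circle marks the 1 value with an adjusted p under 0.05, Pmp22 in IMQ+VEH against IMQ; open symbols did not pass.

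IMQ+IDMF against IMQ sets 1 library against 1, and only sizes are given. The same IMQ library serves in IMQ+VEH against IMQ, so this comparison is not independent of that one. IMQ+IDMF was above IMQ for 8 of 8 members, where 50.2% of all tested genes were. The difference was over 2-fold for 3 of them, where 6.78% of tested genes were: Mag at 2.85-fold, Pmp22 at 2.83-fold and Sox10 at 2.28-fold. The others were 1.23-fold for Egr2 to 1.46-fold for Prx. The median difference was 0.48 in log2 CPM over the members and 0.00 over all tested genes.

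The replicates of IMQ+VEH also differed from each other in these genes. Replicate 2 was below replicate 1 for 6 of the 8, where 53% of tested genes were. The difference of replicate 2 minus replicate 1 in log2 CPM was -1.13 for Pmp22, -1.01 for Sox10, -0.62 for Prx, -0.51 for Mbp, -0.46 for Mag and -0.37 for Cnp. Egr2 and Ncam1 differed by 0.19 and 0.08 in the other direction. The spread within the pair for Pmp22 was thus about as large as the difference between IMQ+IDMF and the higher replicate, which was -1.05.

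Levels can be compared between genes only per length, and for that the authors' FPKM values were used. In the 3 lotion libraries the order was Pmp22, Mbp, Egr2, Cnp, Prx, Sox10, Ncam1 and Mag, highest first. Pmp22 had 35.7 FPKM in IMQ+IDMF, 76.6 and 32.4 FPKM in IMQ+VEH replicates 1 and 2, and 11.8 FPKM in IMQ. In IMQ, Egr2 with 10.2 FPKM stood above Mbp with 9.74 FPKM, and Pmp22 with 11.8 FPKM above both. That order rests on the longer transcript implied for Mbp in IMQ: at the lengths implied in the lotion libraries, its IMQ level would be 13.4 to 15.6 FPKM, above both. At the low end Mag had 0.379 FPKM in IMQ+IDMF, 0.36 and 0.234 FPKM in IMQ+VEH replicates 1 and 2, and 0.111 FPKM in IMQ. Over the IMQ+VEH pair, the FPKM ranges of neighbours in the order overlapped for Pmp22 and Mbp and for no other neighbours.

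Other genes of the same biology were read from lists. A list of 14 further genes of myelin and its paranodes had a median log2 fold change of 1.41 in IMQ+VEH against IMQ, with 0 called. Both IMQ+VEH libraries were above IMQ for 12 of the 14 and below it for 0. Over all tested genes these shares were 33.6% above and 35% below, and they stand beside the counts of every list further on. Cadm4, an adhesion protein of the Schwann cell membrane that faces the axon, had 10.1 CPM in IMQ+IDMF, 16.4 and 9.27 CPM in IMQ+VEH replicates 1 and 2, and 4.14 CPM in IMQ. IMQ was lowest, and IMQ+IDMF lay between the IMQ+VEH replicates (log2 fold change of IMQ+VEH against IMQ 1.63, SE 0.48, adjusted p = 0.232). Sh3tc2, which encodes a Schwann cell protein of endosome recycling that is affected in a human inherited neuropathy, had 10.7 CPM in IMQ+IDMF, 8.81 and 10.5 CPM in IMQ+VEH, and 3.94 CPM in IMQ. Here the 3 lotion libraries were close together and IMQ was apart from them (1.29, SE 0.45, adjusted p = 0.353).

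Fa2h, an enzyme that hydroxylates fatty acids for myelin lipids and for lipids of epidermis and sebaceous glands, had 538 CPM in IMQ+IDMF, 354 and 526 CPM in IMQ+VEH replicates 1 and 2, and 161 CPM in IMQ. It made up most of the summed level of the list, which was 598.2 CPM in IMQ+IDMF, 450.9 and 589.9 CPM in IMQ+VEH and 193.5 CPM in IMQ. Gal3st1, which makes sulfatide, stayed between 7.96 and 10.3 CPM in all 4 libraries. The list's median for IMQ+IDMF against IMQ+VEH was -0.42, with IMQ+IDMF below both IMQ+VEH libraries for 6 of the 14 and above both for 2. Of all tested genes, 27.5% were below both and 27.7% above both.

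**Figure D3:**
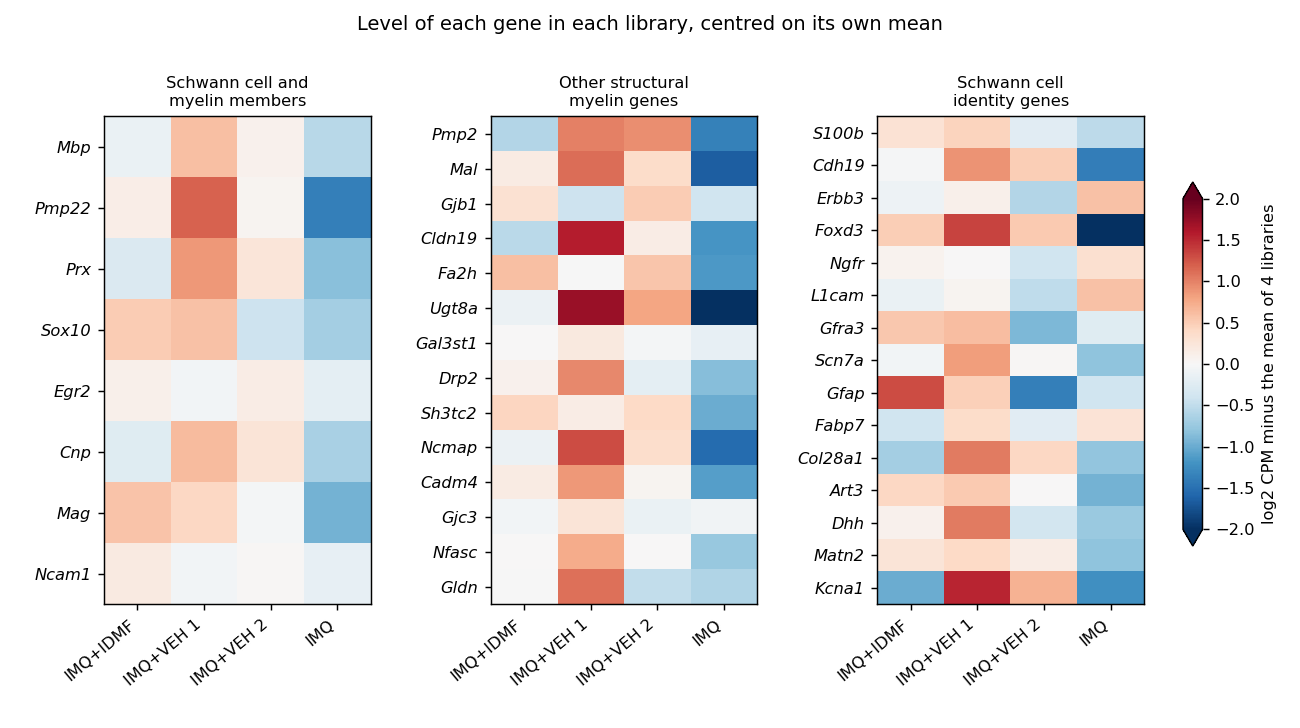
Log2 CPM of each gene minus its mean over the 4 libraries (colour scale from -2 to 2), for the 8 members (left), 14 other structural myelin genes (middle) and 15 Schwann cell identity genes (right); columns are IMQ+IDMF, IMQ+VEH 1, IMQ+VEH 2 and IMQ. The IMQ column is the lowest for all 8 members and 12 of the 14 other myelin genes, and for 9 of the 15 identity genes. IMQ was the lowest library for 28.9% of all tested genes.

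Schwann cell identity genes, some of them of Schwann cells without myelin, included some that were highest in IMQ. Of 15 such genes, both IMQ+VEH libraries were above IMQ for 9 and below it for 3, with a median of 1.09 and 0 called. Art3, a member of the ADP-ribosyltransferase family, had 47.9 CPM in IMQ+IDMF, 51.3 and 35.8 CPM in IMQ+VEH replicates 1 and 2, and 18.6 CPM in IMQ (log2 fold change of IMQ+VEH against IMQ 1.23, adjusted p = 0.157). Matn2, a matrix protein of nerve and skin, had 22.2 CPM in IMQ+IDMF, 24.3 and 20.6 CPM in IMQ+VEH, and 10.5 CPM in IMQ. Erbb3, the neuregulin receptor of Schwann cells that keratinocytes also express, went the other way, at 80.1 CPM in IMQ+IDMF, 92.2 and 56.8 CPM in IMQ+VEH and 129 CPM in IMQ (-0.79, adjusted p = 0.441). L1cam, an adhesion molecule of axons and Schwann cells without myelin, did likewise at 26.8 CPM in IMQ+IDMF, 30.8 and 20.7 CPM in IMQ+VEH, and 44.5 CPM in IMQ (-0.79, adjusted p = 0.452). The median of these identity genes for IMQ+IDMF against IMQ+VEH was -0.02, with 2 genes above both and 6 below both IMQ+VEH libraries. The shares over all tested genes were 27.7% above both and 27.5% below both. Most genes of both lists were detected in all 4 libraries, though some, such as Fa2h and Erbb3, are not genes of Schwann cells alone. All 14 other myelin genes lay above the floor of 3 counts in every library. Of the identity genes, Foxd3 and Gfap, picked out after their values were seen, fell below it. Foxd3 had 1 count in IMQ, and Gfap had 2 in IMQ and 0 in IMQ+VEH replicate 2. Among the identity genes 15 of 15 were lower in IMQ+VEH replicate 2 than in replicate 1, as were 11 of the 14 other myelin genes and 53% of all tested genes.

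Of the regulators upstream of myelination, 7 of 12 were highest in IMQ, as were 30.1% of all tested genes and 0 of the 8 members. In IMQ+VEH against IMQ, 3 of these regulators had both IMQ+VEH libraries above IMQ and 7 below, with a median of -0.16 and 0 called. Pou3f1, which precedes Egr2 in Schwann cells and is also a keratinocyte factor, had 101 CPM in IMQ+IDMF, 88.8 and 106 CPM in IMQ+VEH replicates 1 and 2, and 129 CPM in IMQ. Jun, which holds Schwann cells back from myelin after nerve injury, had 104 CPM in IMQ+IDMF, 84.5 and 99.6 CPM in IMQ+VEH and 129 CPM in IMQ. For both genes, and for the EGR co-factor Nab1 and the receptor Notch1, IMQ was the highest library. Of 8 genes of neuregulin, ERBB and adhesion receptor signalling, 3 had both IMQ+VEH libraries above IMQ and 3 below, with a median of 0.33 and 0 called. Of the 4 most abundant, the receptor Erbb2, the protease Adam17 and the adaptor Gab1 were highest in IMQ. Gab1 had 40.2 CPM in IMQ+IDMF, 44.8 and 40.1 CPM in IMQ+VEH and 74.4 CPM in IMQ. Bace1 was highest in IMQ+VEH replicate 1, at 13.6 CPM in IMQ+IDMF, 21.2 and 11 CPM in IMQ+VEH and 12.8 CPM in IMQ. In IMQ+IDMF against IMQ+VEH the medians were 0.02 for the regulators and -0.11 for the signalling genes.

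Transcripts of the axons themselves were scarce. Of 16 axonal and sensory neuron genes, 8 passed the filter on low counts, and between 2 and 5 of the 16 were at 0 in a library. Their summed level was 18.33 CPM in IMQ+IDMF, 15.79 and 15.41 CPM in IMQ+VEH replicates 1 and 2, and 22.11 CPM in IMQ. Tubb3, a neuronal tubulin and the most abundant of them, had 9.3 CPM in IMQ+IDMF, 6.52 and 10.7 CPM in IMQ+VEH, and 16.8 CPM in IMQ. Without Tubb3 the sum was 9.04 CPM in IMQ+IDMF, 9.27 and 4.73 CPM in IMQ+VEH, and 5.28 CPM in IMQ, so the high sum in IMQ came from that gene. Gap43, a protein of growing axons, had 1.3 CPM in IMQ+IDMF, 1.18 and 1.02 CPM in IMQ+VEH, and 0.118 CPM in IMQ, where it was at the floor of 3 counts (adjusted p = 0.432 for IMQ+VEH against IMQ). Stmn2, a tubulin-binding protein of neurons, had 5.01 CPM in IMQ+IDMF, 5.24 and 2.1 CPM in IMQ+VEH, and 2.6 CPM in IMQ. Of the 8 tested, both IMQ+VEH libraries were above IMQ for 2 and below it for 3, with 0 called. Their medians were -0.05 there and 0.18 for IMQ+IDMF against IMQ+VEH. Neuron cell bodies lie outside the skin, in ganglia. Of 7 trophic factors and markers of Schwann cells after nerve injury, 6 were tested, with medians of -0.13 in IMQ+VEH against IMQ and -0.02 in IMQ+IDMF against IMQ+VEH and 0 called. Lif, a cytokine released by Schwann cells of injured nerve, had the highest level of these, 14 CPM in IMQ+IDMF, 15 and 11.3 CPM in IMQ+VEH and 8.98 CPM in IMQ.

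Markers of other cells of the skin also differed between the libraries, and their part in the members' values was not tested. The 10 tested melanocyte markers, which share Sox10 with Schwann cells, had a median of -0.52 in IMQ+VEH against IMQ (3 above and 6 below) and -0.07 in IMQ+IDMF against IMQ+VEH. Their summed level was 56.44 CPM in IMQ+IDMF, 81.56 and 53.8 CPM in IMQ+VEH and 83.34 CPM in IMQ. Ednrb, which endothelium also expresses, made up 48.6 CPM of the sum in IMQ+VEH replicate 1. Without it the sum was 45.4 CPM in IMQ+IDMF, 33 and 38.6 CPM in IMQ+VEH replicates 1 and 2, and 68.4 CPM in IMQ. The summed level of the adipocyte markers was 2787 CPM in IMQ+IDMF, 3719 and 2543 CPM in IMQ+VEH and 821.7 CPM in IMQ. Their median in IMQ+VEH against IMQ was 2.04, above that of the members, with 8 of 8 above and 4 called higher (Cidec, Plin1, Adipoq and Pnpla2). The dermal fibroblast and matrix list summed to 2342 CPM in IMQ+IDMF, 6698 and 3518 CPM in IMQ+VEH and 1833 CPM in IMQ, with a median of 1.06 in IMQ+VEH against IMQ (8 of 10 above) and 0 called.

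Markers of vessels and muscle had the same direction in IMQ+VEH against IMQ. Endothelial markers had a median of 0.76 (7 of 10 above, sums of 208.9 CPM in IMQ+IDMF, 292.1 and 148.2 CPM in IMQ+VEH and 139.3 CPM in IMQ). Against IMQ their median in log2 CPM was 1.07 for IMQ+VEH replicate 1 and 0.12 for replicate 2. Skeletal muscle markers had a median of 0.64 (9 of 9 above), with sums of 22920 CPM in IMQ+IDMF, 24860 and 17540 CPM in IMQ+VEH and 13050 CPM in IMQ. Keratinocyte markers had a median of -0.20 (0 of 5 above) and hair follicle markers a median of -3.17 (0 of 10 above; Krt35, Krt71 and Krt25, 3 of them, called lower). The hair follicle median was -2.81 with Krt85, at 0 in both IMQ+VEH libraries, set to a floor of 3 counts per library. Macrophage and T and NK cell markers had medians of 0.13 and 0.08. In IMQ+IDMF against IMQ+VEH the medians were -1.03 for the fibroblast list, -1.04 for macrophages and -1.04 for T and NK cells, where that of the members was -0.22. By log2 CPM against IMQ+VEH replicate 1 and against replicate 2, they were -1.50 and -0.43 for fibroblasts, -1.42 and -0.50 for macrophages, and -0.53 and -0.71 for T and NK cells. The fitted medians were -0.13 for endothelium, 0.07 for muscle, -0.09 for adipocytes, 0.12 for keratinocytes and 1.75 for hair follicle.

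**Figure D4:**
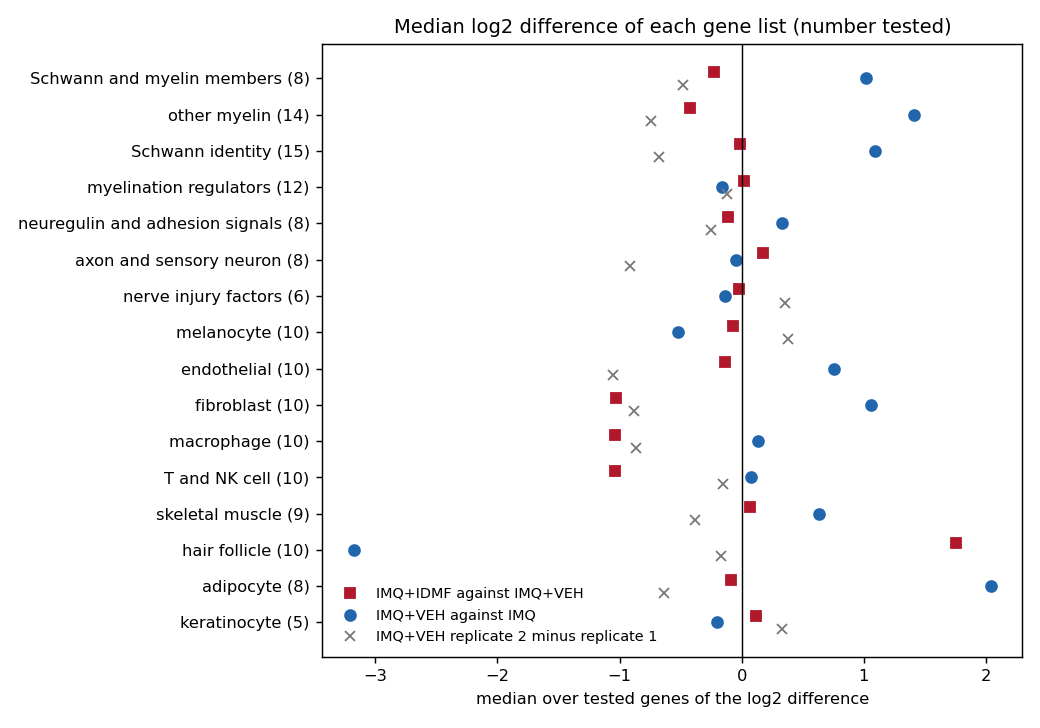
Median log2 difference (x axis) over the tested genes of each list (y axis, number tested in brackets), for IMQ+IDMF against IMQ+VEH (red squares), IMQ+VEH against IMQ (blue circles) and IMQ+VEH replicate 2 minus replicate 1 (grey crosses). In IMQ+VEH against IMQ the members sit at 1.02, below the other myelin genes at 1.41 and adipocyte markers at 2.04 and next to the fibroblast list at 1.06.

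The 6 genes whose centred log2 CPM profile over the 4 libraries lay nearest to the mean profile of the members, among genes of at least 1 in mean log2 CPM, were Thy1, Cers2, Asb10, Sspn, Hsd3b7 and Large. Their root mean square differences from it were 0.019 to 0.04, smaller than those of the members themselves, which ran from 0.14 for Mbp to 0.48 for Pmp22. Thy1 had 31.5 CPM in IMQ+IDMF, 42.9 and 31.4 CPM in IMQ+VEH replicates 1 and 2, and 18.5 CPM in IMQ. With only 4 points a profile, many genes lie close, and Thy1 is itself in the fibroblast list.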

How the data were processed

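For each of the 4 libraries the authors deposited a table of 20611 gene symbols with a raw count per gene, per the file headers. The same tables hold the authors' deposited FPKM, a level scaled by transcript length and library size. TopHat2, Cufflinks, HTSeq and the builds mm10 and GRCm38 are named in the submitters' processing notes. Their versions, the annotation, the strand setting and how multiply mapped reads were counted: not given in the sources used here. Gene positions came from GENCODE M21 (GRCm38).

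Counts were tested with edgeR 4.0.16 in R 4.3.3 (two-sided quasi-likelihood F test, TMM, filterByExpr by group with a minimum count of 10 and total of 15, 1 mean per group). P-values were adjusted by Benjamini-Hochberg over 15068 genes, with a threshold of 0.05. The IMQ+VEH pair gave 1 residual degree of freedom, to which edgeR added 11.2 prior degrees. Its common biological coefficient of variation was 24%. Each SE was log2 fold change over the root of F. Log2 CPM used a prior count of 2. The procedure was tested on simulated counts. The criteria there were the sign and size of fold changes, not the rate of false calls.

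Some genes of the myelin list are not reported here. The members and the 15 other lists were chosen with earlier results of these data known. Named were all members, the up to 4 most abundant genes of each other list, those called, and the 6 nearest in profile; values of markers of other cells are printed as sums and medians. Alternatives were DESeq2 1.42.0, edgeR with DESeq2 size factors or with total counts, dropping the filter, raising it to a mean count of 50, a robust fit, differences of log2(FPKM + 0.1), merged groups, and leaving out libraries.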

Additional observations from a re-analysis of the deposited data

How the results depend on the processing

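No paired analysis was possible because no group but IMQ+VEH has more than 1 library. In IMQ+IDMF against IMQ+VEH the count of called genes was 0, except for 16 without a filter on low counts, and no member was called under any alternative. In IMQ+VEH against IMQ, 100 genes were called, against 424 without a filter, 202 with DESeq2 and 55 with the 3 lotion libraries as 1 group; TMM gave 51 higher and 49 lower, DESeq2 size factors 75 and 56, and total counts 44 and 37. Of the members, 1 was called in that comparison, against 0 with total counts, 0 with a robust fit, 0 without the IMQ+IDMF library, 0 with the 3 lotion libraries as 1 group, and 2 without a filter (Pmp22 and Prx). Prx then had an adjusted p of 0.0115. Adipoq, Plin1, Pnpla2, Krt35 and Krt25 also missed the threshold with the 3 lotion libraries as 1 group, at adjusted p of 0.0669 to 0.5. With IMQ and IMQ+VEH as 1 group, 4 marker genes changed sign in IMQ+IDMF against that group: Krt71 at -2.39, Krt25 at -1.94, Plin1 at 0.41 and Cidec at 0.32. The merged group holds the IMQ library. There Krt71 and Krt25 had 17.8 and 14.8 CPM, against 1.16 and 1.34 CPM in IMQ+IDMF. Plin1 and Cidec had 13.5 and 45.1 CPM in IMQ, against 72.8 and 250 CPM in IMQ+IDMF. Why the libraries differ in these genes was not tested. As a difference of log2(FPKM + 0.1), IMQ+VEH against IMQ was 1.56 for Mbp and 0.90 for Mag. The added 0.1 lowers the Mag value, since Mag had 0.111 FPKM in IMQ. Without it, the mean of IMQ+VEH over IMQ for Mag was 2.69 by FPKM and 2.49 by CPM. Leaving out an IMQ+VEH replicate leaves 1 library a group, so it gives values without a test. Scaling moved the median of all genes by at most 0.07. Mag had the fewest counts of the members, 9 to 29 a library, and so the widest counting error.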
